A study of Homo sapiens with 6 samples.

Results

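The genes described here are a signalling module at the cytoplasmic side of tumour necrosis factor (TNF) receptors: the adaptors TRAF1, TRAF2, TRAF3, TRAF5 and TRAF6, the ubiquitin ligases BIRC2 and BIRC3 (cIAP1 and cIAP2), the feedback inhibitor TNFAIP3 (A20), the receptor TNFRSF1A and the kinase RIPK1. They were taken by name, as each probe set annotated with one of these 10 symbols alone. Of the 10, 7 genes were matched, with 20 probe sets, out of 18132 genes and 44988 single-symbol probe sets in the series. TRAF2, BIRC3 and RIPK1 were not analysed here. The list was chosen by function with results of these arrays known, namely the SATalpha minus GFP differences of TRAF1, TNFAIP3 and BIRC2, so the same differences of its genes are given as a description and support nothing.

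ARPE-19, an established human line derived from retinal pigment epithelium, received 2.5 µg per well of one of 2 plasmids in 6-well plates. The control group was given a GFP plasmid (GFP, n = 3 arrays). The other group was given a GFP plasmid that also carries satellite alpha, the tandem repeat of human centromeres (SATalpha, n = 3 arrays). Both plasmids carried GFP, and total RNA was hybridised to Affymetrix 3′ expression arrays. Whether replicate arrays came from separate wells or cultures is not in the labels, so p-values measure only the variation among these samples, possibly technical.

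TNF binds TNFRSF1A, which assembles a complex on its cytoplasmic tail with the adaptor TRADD, the kinase RIPK1 and TRAF2. TRAF2 brings in BIRC2 and BIRC3, which attach ubiquitin chains to RIPK1, and these chains recruit the kinases that release NF-kB into the nucleus. TNFAIP3 edits or binds such chains and ends the signal, and it is itself a classical NF-kB target, as is TRAF1. TRAF3, together with TRAF2 and the cIAPs, keeps the kinase NIK at low levels and so holds back the non-canonical branch that processes NFKB2. TRAF6 serves Toll-like and interleukin-1 receptors, and TRAF5 several receptors of lymphoid cells. In the pigment epithelium, TNF and interleukin-1 are known inducers of chemokines.

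The promoter windows of TRAF1 and TNFAIP3, the genes with the largest differences, and of BIRC2, whose probe sets were the most uniform, are shown to set the members' start regions beside their values. Each window is the RefSeq sequence (GRCh38.p14) from 250 bases before to 50 bases after the gene start, on the coding strand, with matches to the NF-kB consensus in capitals. The windows are chr9:120929122-120929421 (minus strand) for TRAF1, chr6:137867009-137867308 (plus strand) for TNFAIP3 and chr11:102346964-102347263 (plus strand) for BIRC2.
TRAF1: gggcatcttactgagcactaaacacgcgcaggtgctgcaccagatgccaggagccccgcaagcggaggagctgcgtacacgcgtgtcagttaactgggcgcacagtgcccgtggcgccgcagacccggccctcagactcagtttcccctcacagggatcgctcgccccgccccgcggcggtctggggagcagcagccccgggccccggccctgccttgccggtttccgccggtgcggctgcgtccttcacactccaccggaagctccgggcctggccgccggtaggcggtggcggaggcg
TNFAIP3: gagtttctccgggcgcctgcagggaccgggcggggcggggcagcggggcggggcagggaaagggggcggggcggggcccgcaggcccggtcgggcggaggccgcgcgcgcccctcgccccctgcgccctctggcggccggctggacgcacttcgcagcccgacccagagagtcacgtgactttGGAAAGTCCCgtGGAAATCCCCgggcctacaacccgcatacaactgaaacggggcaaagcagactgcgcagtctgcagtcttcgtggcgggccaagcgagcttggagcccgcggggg
BIRC2: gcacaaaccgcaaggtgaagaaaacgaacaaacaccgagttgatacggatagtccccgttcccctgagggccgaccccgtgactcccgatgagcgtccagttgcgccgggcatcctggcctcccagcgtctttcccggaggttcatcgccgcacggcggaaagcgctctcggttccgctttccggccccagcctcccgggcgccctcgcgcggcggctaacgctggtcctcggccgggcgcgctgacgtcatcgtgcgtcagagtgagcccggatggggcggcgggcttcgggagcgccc
TNFAIP3 held 2 matches, GGAAAGTCCC and GGAAATCCCC, both on the reverse strand and starting at positions -67 and -55 from the gene start. TRAF3 held 1, GGGGATTTCC, at position -33, and the TRAF1, TRAF5, TRAF6, BIRC2 and TNFRSF1A windows held 0. Of all 27305 windows of this length, 10.8% held at least 1 match on either strand. The 7-letter AP-1 motif TGANTCA was found in 0 of the 7 windows, against 7.76% of all windows on either strand. The GC box GGGCGG, which can overlap itself and lay on 1 strand or the other, occurred 6 times each in TNFAIP3 and TRAF3, once each in TRAF1, TRAF6 and BIRC2, and in 44.6% of all windows. CpG dinucleotides numbered 61 in TRAF3, 40 in BIRC2, 35 in TNFAIP3, 32 in TRAF1, 28 in TRAF6, 8 in TRAF5 and 4 in TNFRSF1A, with a median of 14 over all windows. These are matches of letters in a short window and say nothing of binding.

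Signals are the authors' normalised log2 values, and array medians lay between 5.29 and 5.32. At the gene level the brightest probe set stood for each gene, and genes with a mean under the floor of 5.19 were not tested. All 7 matched genes passed this filter. Of the pigment epithelium markers, KRT18 (12.22 with GFP), KRT8 (11.48), OTX2 (8.37) and MITF (8.15) were high, whereas RPE65 (3.48), RLBP1 (4.20) and BEST1 (4.63) lay below the floor. Of the 8 epithelial markers tested, KRT18 and KRT8 fell by 0.21 and 0.13 (limma adjusted p = 0.000675 and 0.0266) and 6 did not pass. The other probe set of KRT18 differed by -0.09, and the 7 others of KRT8 by -0.12 to 0.30. Over all 15 epithelial markers measured the mean level was 6.41 to 6.44 on GFP arrays and 6.34 to 6.38 on SATalpha arrays. Leukocyte markers (7 genes) averaged 4.12 to 4.30 and 4.15 to 4.22, endothelial markers (5 genes) 4.56 to 4.64 and 4.57 to 4.72, and fibroblast markers (6 genes) 3.79 to 3.88 and 3.73 to 3.82. These means hide markers that passed the floor: CD68 (8.25 with GFP) of the leukocyte list, PECAM1 (5.25), VWF (5.29) and KDR (5.45) of the endothelial, and PDGFRB (5.63) of the fibroblast. The other 6, 2 and 5 markers of these lists lay below it. What part the marker levels have in the results below was not tested.

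The module was lower with satellite alpha in most of its probe sets. Of the 20, 17 had a negative difference and 15 had all 3 SATalpha values below all 3 GFP values. Among all 49293 probe sets, 13.4% were separated in that direction. By limma over all probe sets, 10 of the 20 passed an adjusted p of 0.05, all lower, against 4.19% of all probe sets called lower. At the gene level 4 of 7 were called lower (TRAF1, TNFAIP3, BIRC2 and TNFRSF1A) and 0 higher, against 13.0% and 7.72% of the 10879 tested genes. The median difference was -0.19 over the 7 genes and -0.02 over all tested genes. Probe sets of 1 gene share their target and are not independent, and because the genes were chosen with this contrast in view nothing is read from these shares.

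**Figure D1:**
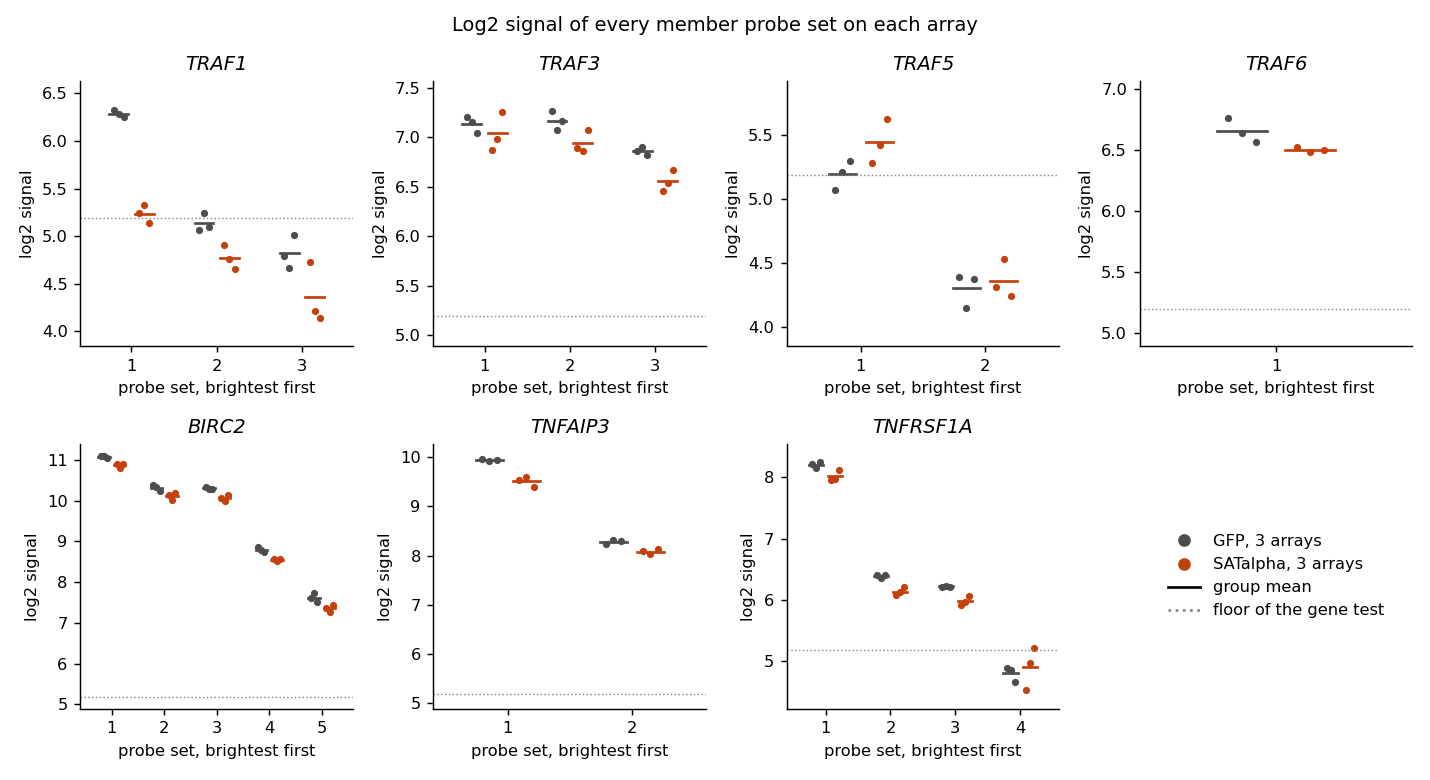
Log2 signal (vertical axes, each panel with its own range) of all 20 probe sets on each array, by gene, with probe sets ordered by mean along the horizontal axes; points are arrays, short lines group means and the dotted line the floor of 5.19. The first TRAF1 probe set shows the widest gap between GFP (6.25 to 6.33) and SATalpha (5.14 to 5.33), the 5 BIRC2 probe sets keep a similar small step at every level, and TRAF5 alone has both probe sets higher with satellite alpha.

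TRAF1, an adaptor without the RING domain of its relatives, had the largest difference of the module. Its brightest probe set (11721588_at) read 6.33, 6.28 and 6.25 on the 3 GFP arrays and 5.24, 5.33 and 5.14 on the 3 SATalpha arrays. The groups were far apart, with 0.92 between the lowest GFP and the highest SATalpha value. The difference was -1.05 on the log2 scale (SE 0.09), a signal 48.3% of that with GFP. Its SATalpha mean of 5.24 lay close to the floor of 5.19, and SATalpha replicate 3 lay below it, so the size of this difference rests on a dim signal. The other TRAF1 probe sets were dimmer still, with means below the floor, and were lower by less. The second read 5.07, 5.24 and 5.10 with GFP and 4.90, 4.77 and 4.65 with satellite alpha, a difference of -0.36 (SE 0.10) without overlap. The third read 4.79, 4.66 and 5.01 against 4.73, 4.22 and 4.15, a difference of -0.46 (SE 0.15) with SATalpha replicate 1 inside the GFP range. The size of the TRAF1 difference thus varied with the probe set, while its direction did not. In bulk RNA, fewer cells with the transcript and less transcript per cell cannot be told apart, here and for every gene below.

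TNFAIP3, the ubiquitin-editing inhibitor of NF-kB signalling, was lower in both of its probe sets. The brighter one (11718939_s_at) read 9.97, 9.93 and 9.94 with GFP and 9.54, 9.60 and 9.39 with satellite alpha, a difference of -0.44 (SE 0.05) or 73.9% of the GFP signal. The spread was wider among the SATalpha arrays (SD 0.11) than among the GFP arrays (SD 0.02), and the groups did not overlap. The other probe set read 8.24, 8.32 and 8.29 against 8.09, 8.03 and 8.12, a difference of -0.20 (SE 0.05), again without overlap. SATalpha replicate 3 was the lowest of its group in the first probe set and the highest in the second.

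BIRC2, the cIAP1 ligase that binds TRAF2, had the smallest spread of differences among the genes with several probe sets. All 5 were lower without overlap, by 0.20 to 0.26 on the log2 scale, and each kept 83.4% to 86.8% of the GFP signal. The brightest (11757937_s_at) read 11.08, 11.09 and 11.04 with GFP and 10.90, 10.80 and 10.88 with satellite alpha, a difference of -0.21 (SE 0.04). The dimmest read 7.61, 7.73 and 7.51 against 7.36, 7.26 and 7.44, a difference of -0.26 (SE 0.07). SATalpha replicate 2 was the lowest of its group in each of the 5. The IDs of all BIRC2 and TNFAIP3 probe sets carry the suffix _a_ or _s_, which marks sets that can match several transcripts, so neither gene has a value from other probe sets.

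TNFRSF1A, the receptor at the head of the pathway, read lower in its 3 brighter probe sets and not in the dimmest, and passed in none of the 4 in the limma fit over all probe sets. The brightest (11754297_s_at) read 8.21, 8.14 and 8.24 with GFP and 7.95, 7.96 and 8.12 with satellite alpha. These groups were separated by only 0.02, between GFP replicate 2 and SATalpha replicate 3, and the difference was -0.19 (SE 0.06). The next read 6.40, 6.35 and 6.41 against 6.07, 6.12 and 6.21, a difference of -0.25 (SE 0.08). The third differed by -0.24 (SE 0.08), from 6.22 to 6.23 with GFP to between 5.92 and 6.06. The fourth, with a mean below the floor, read 4.89, 4.86 and 4.67 against 4.53, 4.98 and 5.21, a difference of 0.10 (SE 0.15) with overlapping groups. The gene-level call needed every array but 1. Leaving out GFP replicate 1, 2 or 3 (-0.18, -0.21 and -0.16) ended it, as did leaving out SATalpha replicate 1 or 2 (-0.16 in both) but not 3 (-0.24). It was also not called without the filter or the mean-variance trend (-0.19 in both) or when its 4 probe sets were averaged (-0.14).

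TRAF3, which restrains the non-canonical branch, gave different values in its 3 probe sets. The brightest (11759502_at) read 7.20, 7.15 and 7.04 with GFP and 6.87, 6.99 and 7.26 with satellite alpha, a difference of -0.09 (SE 0.09). Its SATalpha replicate 3 was the highest of the 6 arrays, so the groups overlapped. The second read 7.27, 7.08 and 7.16 against 6.89, 6.86 and 7.07, a difference of -0.23 (SE 0.08) with a gap of only 0.0071. The third read 6.85, 6.90 and 6.82 against 6.45, 6.54 and 6.67, a difference of -0.31 (SE 0.07) with a clear gap of 0.15, and alone of the 3 passed in the fit over all probe sets, although the gene was not called. In all 3, SATalpha replicate 3 was the highest of its group. With that array left out the second probe set became the brightest, and TRAF3, at -0.29, was called lower.

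TRAF6 and TRAF5 passed neither at the gene level nor in any probe set. TRAF6, the adaptor of Toll-like and interleukin-1 receptors, had 1 probe set, which read 6.76, 6.63 and 6.56 with GFP and 6.52, 6.48 and 6.49 with satellite alpha. The difference of -0.15 (SE 0.07) left the groups apart by 0.04. TRAF5 was the only member with a positive difference in each of its probe sets. The brighter one, close to the floor, read 5.07, 5.21 and 5.29 against 5.29, 5.42 and 5.62, a difference of 0.25 (SE 0.11) with groups that overlapped at 5.29. The dimmer one, below the floor, read 4.40, 4.15 and 4.38 against 4.31, 4.53 and 4.24, a difference of 0.06 (SE 0.12) with overlap.

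**Figure D2:**
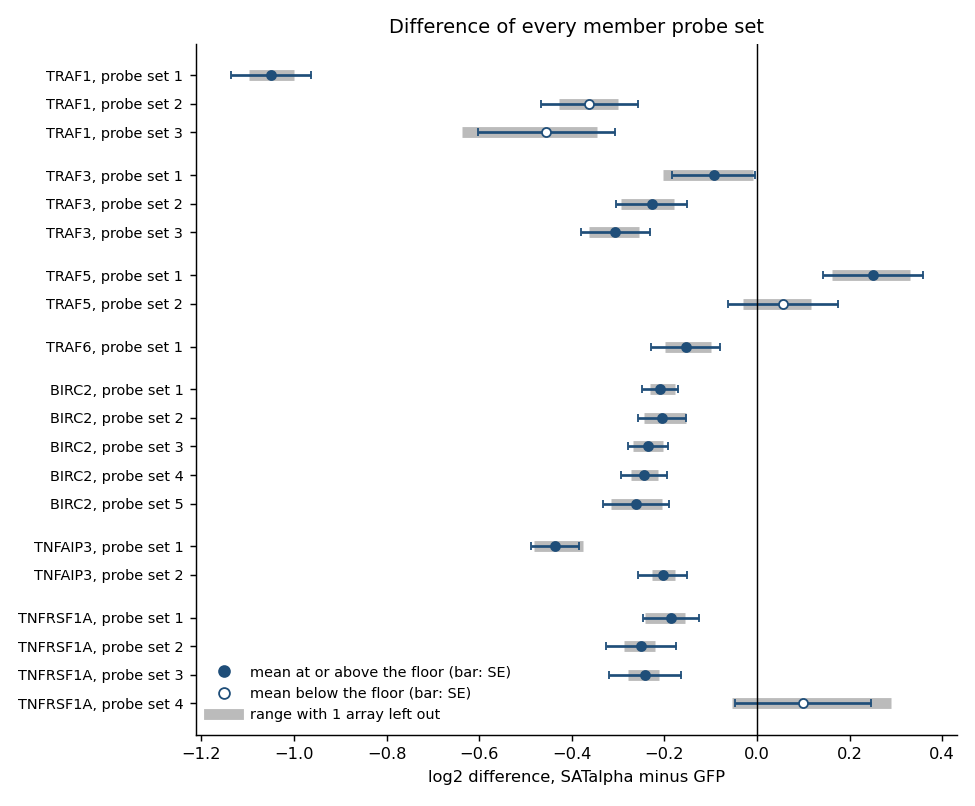
Log2 difference, SATalpha minus GFP (horizontal axis), of each of the 20 probe sets (rows, brightest first within a gene); points are differences, thin bars their limma SE, grey bands the range when 1 of the 6 arrays is left out, and open points sets with a mean below the floor. The BIRC2 sets lie between -0.26 and -0.20, the first TRAF1 set stands apart at -1.05, and the bands of the dimmer TRAF5 set and of the dimmest TNFRSF1A set cross 0.

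Where signals were lower with satellite alpha, the SATalpha arrays differed in their distance from GFP. Among the 15 separated probe sets, SATalpha replicate 3 lay nearest to GFP in 9, replicate 1 in 4 and replicate 2 in 2. Replicate 3 was also the nearest to GFP in 49.7% of the 1419 genes called lower in the whole series. Both counts cover only lower values, where nearest to GFP means the highest of the 3 SATalpha arrays. They say nothing of genes that rose, which were not counted in this way. Among genes that rose, replicate 3 was the farthest from GFP in TLR3 (7.12) and NFKBIZ (7.85). It lay between the other SATalpha arrays in CCL20 (6.46) and was the nearest to GFP in CFLAR (9.35) and CXCL8 (12.60). Without SATalpha replicate 3, 12 of the 20 probe sets were called lower. With another single array left out 4 to 8 were. Removal of GFP replicates 1, 2 and 3 gave 4, 5 and 8, and removal of SATalpha replicates 1 and 2 gave 6 and 5. The first TRAF1 set, the first TNFAIP3 set and the BIRC2 sets ranked 1 and 3 by brightness, 4 in all, passed whichever array was left out. The others called with all arrays were less firm. Of the 6 fits with 1 array left out, the second TRAF1 set passed in 0 and the second TNFAIP3 set in 1. The third TRAF3 set passed in 2, and the BIRC2 sets ranked 2, 4 and 5 in 2, 5 and 2.

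**Figure D3:**
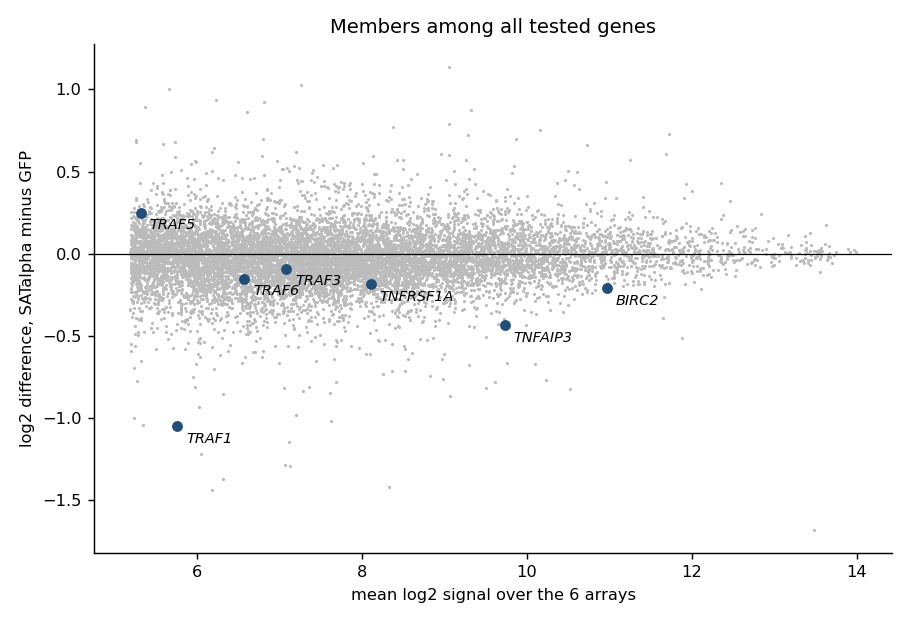
Log2 difference, SATalpha minus GFP (vertical axis), against mean log2 signal (horizontal axis) for the 10879 tested genes (grey) and the 7 members (blue), each by its brightest probe set. TRAF1 (-1.05) lies at the lower edge of the cloud, TNFAIP3 (-0.44) and BIRC2 (-0.21) are bright genes below 0, and TRAF5 (0.25) lies above 0 near the floor.

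The other genes of the pathway were taken from 8 lists by role, with 117 genes listed, 108 measured and 85 tested. Of these, 15 fell, 11 rose and 59 did not pass (limma, adjusted over all 10879 tested genes), with a median of -0.04. These are 17.6% lower and 12.9% higher, against 13.0% and 7.72% of all tested genes, whose median was -0.02. Each list is small, so its counts are a description, and nothing particular to a list is read from them. Adjusted p-values below are from that fit. Of the 25 genes named by the rule, 13 passed whichever array was left out. Leaving out GFP replicate 1 gave 10 lower and 6 higher genes, and leaving out GFP replicate 2 or SATalpha replicate 1 gave 11 and 7 each.

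Of 6 tested ligands, 2 fell and 0 rose (median -0.20). IL1A and IL1B, the interleukin-1 cytokines whose receptor signals through TRAF6, fell by 0.59 (SE 0.13, adjusted p = 0.00469) and by 0.40 (SE 0.10, adjusted p = 0.0120). IL1A passed the filter through its GFP mean of 5.50, and its SATalpha mean of 4.91 lay below the floor, so the size of its fall rests on a dim signal. The IL1B call ended on leaving out SATalpha replicate 1 (-0.32), and IL1A lay below the floor in 3 of the 6 fits with 1 array left out. TNF itself was among the 7 ligands below the floor. Of 10 receptors that use TRAFs, 2 rose and 1 fell (median 0.01). TLR3, an endosomal receptor that senses double-stranded RNA, rose from 6.17 ± 0.09 to 7.04 ± 0.08 (mean ± SD, n = 3; adjusted p = 3.23e-06 by limma). TNFRSF12A, the receptor for TWEAK, fell from 12.11 ± 0.02 to 11.94 ± 0.02 (n = 3; adjusted p = 0.00188 by limma). LTBR, the lymphotoxin beta receptor, rose by 0.14 (adjusted p = 0.0429), which removal of GFP replicate 1, 2 or 3 (0.15, 0.13 and 0.14) or of SATalpha replicate 1 or 3 (0.14 and 0.11) took out of the called genes.

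Among other TRAFs and partners of TRAF proteins, 2 of 8 tested genes fell and 1 rose (median -0.18). TIFA, which oligomerises TRAF6, fell from 7.93 ± 0.05 to 7.52 ± 0.09 (n = 3), by 0.41 (limma adjusted p = 0.000353), and its other probe set differed by -0.46. TRAF3IP2, the adaptor of the interleukin-17 receptor, fell by 0.38 (adjusted p = 0.00114), but its other probe set differed by 0.01. TRAF4, another member of the family, rose by 0.19 (adjusted p = 0.0194). Its direction is uncertain, since its 6 other probe sets ranged from -0.30 to 0.04, and removal of GFP replicate 1 (0.16) or 3 (0.18) ended the call.

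Of 15 tested adaptors and kinases 2 fell, a share (13.3%) close to that of all tested genes, and 0 rose (median -0.08). TICAM1, the adaptor that links TLR3 to TRAF3 and TRAF6, fell from 7.36 ± 0.06 to 6.97 ± 0.06 (n = 3; limma adjusted p = 0.000672). TBK1, the kinase that activates interferon regulatory factors, fell by 0.20 (adjusted p = 0.0463), which did not hold on removal of GFP replicate 1 or 2 (-0.17 in both) or of SATalpha replicate 1 or 2 (-0.24 and -0.13). TRADD, the adaptor that bridges TNFRSF1A to RIPK1, chosen after its value was seen, had a mean of 8.24 in both groups. Its spread was wider among the SATalpha arrays (8.09, 8.26 and 8.35, SD 0.13) than among the GFP arrays (SD 0.04).

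Of 16 ubiquitin enzymes and TNFAIP3 partners, 3 rose and 1 fell (median -0.01). ZC3H12A, an RNase that degrades cytokine transcripts, rose by 0.29 (adjusted p = 0.0159; 0.25 and not past the threshold without GFP replicate 3). RBCK1, a subunit of the linear ubiquitin ligase, rose by 0.25 (adjusted p = 0.0178), which did not hold on removal of GFP replicate 1 or 2 (0.26 and 0.21) or of SATalpha replicate 1 (0.24). TAX1BP1, which carries TNFAIP3 to its substrates, rose by 0.14 (adjusted p = 0.0316), which did not hold on removal of any 1 GFP array (0.16, 0.13 and 0.12 for replicates 1, 2 and 3) or of SATalpha replicate 1 (0.10). UBE2N, the enzyme that builds lysine-63 chains with TRAF6, fell by 0.17 (adjusted p = 0.0428). Its other probe sets differed by -0.01 and 0.0048, and the call did not hold on removal of any 1 GFP array (-0.17, -0.18 and -0.16 for replicates 1, 2 and 3) or of SATalpha replicate 1 or 3 (-0.16 and -0.11).

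The NF-kB subunits and inhibitors had the lowest median of the 8 lists, -0.27, with 4 of 9 lower and 1 higher. That median is the value of 1 gene, BCL3, which was not called (limma adjusted p = 0.0532). The 3 other probe sets of BCL3 differed by 0.05 to 0.32, so the rank of this list depends on the probe set used. NFKBIE, an inhibitor that retains NF-kB in the cytoplasm, fell from 9.36 ± 0.02 to 8.59 ± 0.02 (n = 3), by 0.76 (limma adjusted p = 5.87e-08). NFKBIZ, a nuclear cofactor of NF-kB, rose from 7.26 ± 0.06 to 7.80 ± 0.04 (n = 3), by 0.54 (limma adjusted p = 2.83e-05). The subunits RELB and NFKB1 fell by 0.65 and 0.38 (adjusted p = 1.70e-05 and 0.000119).

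In the death arm, which a complex of FADD and caspase-8 runs when ubiquitin chains on RIPK1 are missing, 2 of 9 genes rose and 1 fell (median 0.03). CFLAR, the caspase-8 inhibitor, rose by 0.29 (adjusted p = 0.000488), and TNFRSF10A, a death receptor for TRAIL, rose by 0.34 (adjusted p = 0.00270). DIABLO, a mitochondrial protein that antagonises the cIAPs, fell by 0.17 (adjusted p = 0.0120; not held on removal of GFP replicate 3, -0.15, or SATalpha replicate 1, -0.16). Of 12 tested genes that NF-kB induces, 2 rose and 2 fell, 16.7% in each direction (median 0.05). CCL20, a chemokine, rose by 0.62 (adjusted p = 0.000215), and IRF1, an interferon regulatory factor, fell by 0.42 (adjusted p = 0.00250), although its other probe sets ranged from -0.39 to 0.16. CCL2 fell by 0.18 (adjusted p = 0.0142), which did not hold on removal of GFP replicate 1 or 2 (-0.17 in both). CXCL8 rose by 0.14 (adjusted p = 0.0210), which did not hold on removal of GFP replicate 1 or 2 (0.15 and 0.12) or of SATalpha replicate 1 or 2 (0.13 and 0.11).

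Some of these calls also depended on the settings. LTBR, TBK1 and UBE2N were not called without the filter, and these and TAX1BP1 and CXCL8 were not called without a mean-variance trend. Quantile normalisation ended the call of TAX1BP1 (0.11). As the mean of all their probe sets, TRAF3IP2 (-0.18), UBE2N (-0.06) and IRF1 (-0.14) were not called. A replicate block, which fits arrays of the same replicate number together, ended more of them. LTBR, TRAF4, TBK1, ZC3H12A, TAX1BP1, UBE2N, CCL2 and CXCL8 were not called with it.

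**Figure D4:**
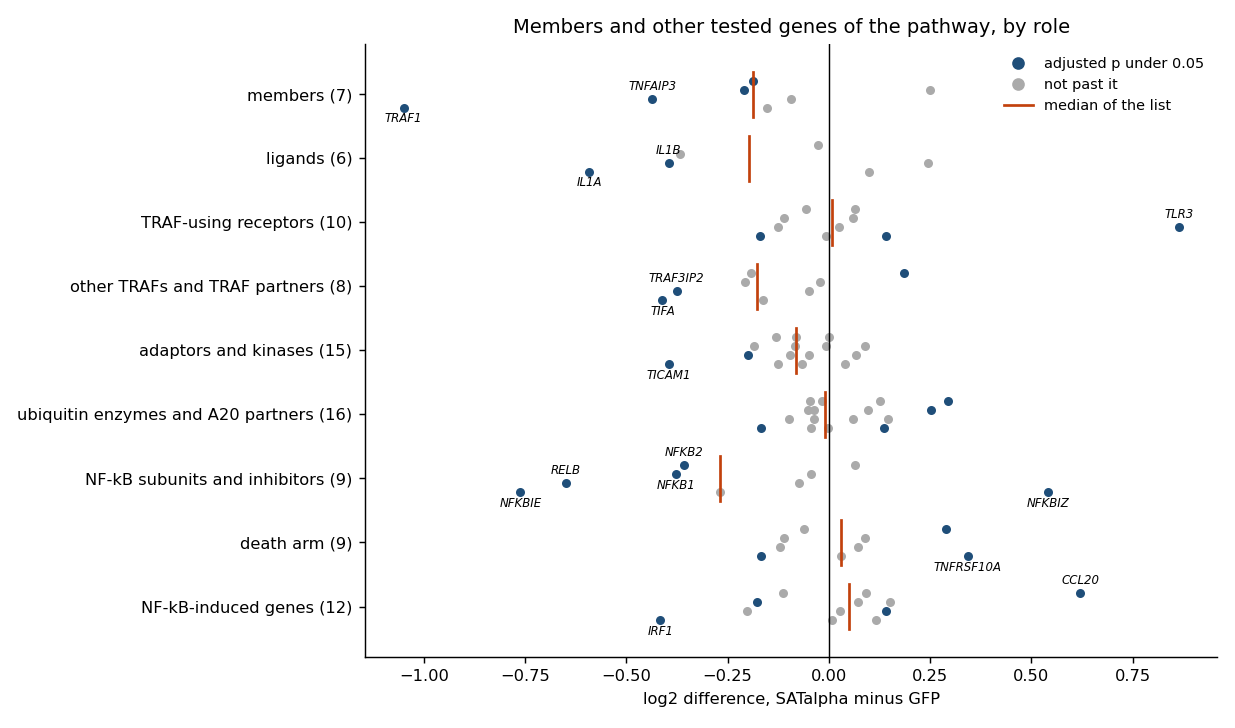
Log2 difference, SATalpha minus GFP (horizontal axis), of the 7 members and of 85 other tested pathway genes by role (rows, with the number tested); blue points passed limma's adjusted p of 0.05 over all tested genes, grey points did not, red lines are list medians, vertical scatter within a row has no meaning, and called genes beyond 0.34 are named. TRAF1, NFKBIE and RELB lie farthest to the left, TLR3, CCL20 and NFKBIZ farthest to the right.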

How the data were processed

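Total RNA from transfected ARPE-19 cells was hybridised to 6 arrays, and the deposited log2 values per probe set were normalised between arrays by the authors. MAS5 and RMA both appear in the submitters' processing notes, with no version or role stated. Such normalisation can compress differences of dim transcripts. No detection calls were used here. Of 49372 probe sets, 79 were controls, 44988 had 1 gene symbol in the platform annotation, 1832 several and 2473 none, and 0 of those with several named a member.

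Each gene was represented by its brightest single-symbol probe set, and the lowest 40% of genes were left out. SATalpha was compared with GFP by limma 3.58.1 in R 4.3.3 (lmFit, eBayes with a mean-variance trend, Benjamini-Hochberg over all tested genes), and separately over all 49293 non-control probe sets. The median SE of a difference was 0.06, and the number of arrays limits the precision. No batch is given in the labels or files. No 2 arrays held identical values.

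The members and pathway lists were chosen with earlier results of these data known. The rule named all members and, per list, at most 4 called genes in order of p, or 2 where no gene was called. Markers named beside levels were chosen after their values were seen. Promoters come from RefSeq, and all 10 listed genes matched. Alternatives were the filter, quantile normalisation, the mean of all probe sets, leaving out _x_, _s_ and _a_ sets, no trend, a replicate block and each array left out.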

Additional observations from a re-analysis of the deposited data

How the results depend on the processing

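TRAF1, TNFAIP3 and BIRC2 stayed lower and called in each setting that gave them a value. TNFRSF1A kept its call with the lowest 60% of genes left out, with quantile normalisation and without SATalpha replicate 3, lost it in 9 other settings, and was reversed (0.10) without _x_, _s_ and _a_ probe sets, where only its dimmest set remains. That setting tested 5012 genes and gave 261 lower and 220 higher calls against 1419 and 840, 1 member of the 3 it tested (TRAF1), and 9 lower and 3 higher pathway genes. TRAF3 passed as the mean of its probe sets (-0.21) and without SATalpha replicate 3 (-0.29), where its second set is the brightest. TRAF4 was reversed as the mean of its probe sets (-0.0787) and without _x_, _s_ and _a_ sets (-0.0095), where its brightest set is replaced. For the other reversed or lost calls the cause was not tested.

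With 1 array left out, which also lowers power, lower and higher calls ranged from 732 to 1628 and from 477 to 899 over all genes, from 3 to 5 lower members, from 10 to 18 and from 6 to 11 over pathway genes, and from 4 to 12 member probe sets. Lower calls were 732 without GFP replicate 1, 900 without GFP replicate 2 and 895 without SATalpha replicate 1. The labels do not say whether arrays with the same replicate number are paired. Correlations of same-numbered deviations were -0.003, -0.24 and -0.29, and 0 of 3 GFP arrays correlated best with their own number. With 3 arrays per group, these values cannot decide whether the numbers are paired. With a replicate block, 817 genes were called lower and 483 higher, 3 members and 5 member probe sets lower, and 11 pathway genes lower and 6 higher. Of 306 values of the 25 named pathway genes, 249 kept their direction and side of the threshold, 55 lost the call and 2 reversed. Dim probe sets limit TRAF1, TRAF5 and TNFRSF1A, whose sets below the floor have SEs of 0.10 to 0.15. The brightest TRAF1 set was also close to the floor with satellite alpha (5.24).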
